A study of Arabidopsis thaliana with 12 samples.

Results

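Splicing was compared between the shoot apices of Arabidopsis thaliana plants that had spent 3 days at 25 °C and apices of plants still at 16 °C. The comparison used 6 of the 12 RNA-seq samples of the series, namely the 3 labelled 25 °C day 3 and the 3 labelled 16 °C day 1. The other samples, at 25 °C for 1 day and for 5 days, are given beside them for each event named. All plants were Columbia (Col-0) with no transgene or mutation named in the labels, grown for 5 weeks at 16 °C under short days (light for 8 h, dark for 16 h), and each sample pooled about 10 plants. Transfer to 25 °C was made 6 h after lights on and tissue was taken 4 h after lights on. The methods state that leaves were removed to enrich for the meristem, whereas young leaves are part of the tissue according to the labels. The table used here holds no expression levels, so the tissue could not be checked against marker genes.

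The deposited table lists 638 splicing events in 511 genes with 1 value per group. The value, the percentage spliced in (PSI), lies between 0 and 1 and is the share of transcripts of an event that follow the isoform set as reference. The members described here are the events whose PSI at 25 °C day 3 differed from that at 16 °C by 0.10 or more in either direction. They were 382 events in 311 genes, which is 59.9% of all events listed. Each listed event had been called different from 16 °C by the authors on at least 1 day, so a large share with a change is a property of the list. The authors also required PSI to differ less among replicates than between conditions, but the table gives 1 number for the 3 samples of a group, with neither their spread nor a read depth, so no test and no error of a single PSI can be given. Because PSI is a share over all cells of the tissue, a shift in the mix of cell types and a shift within cells cannot be told apart. The plants at day 3 were also older than the 16 °C plants taken at day 1, and temperature and age cannot be told apart.

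Splicing removes introns from precursor RNA between a 5′ splice site, which usually starts with GT, and a 3′ splice site, which usually ends with AG. Alternatives are of several kinds: an intron that is kept or removed, an exon that is included or skipped, a choice between neighbouring 3′ sites or neighbouring 5′ sites, and a choice between exons that exclude each other. In plants retained introns are the most frequent kind, and transcripts that keep one often carry an early stop codon or stay in the nucleus. Ambient temperature is known to shift the splicing of flowering, clock and splicing factor genes.

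Both directions were common after 3 days at 25 °C. PSI was higher at 25 °C in 205 events (32.1% of all listed events) and lower in 177 (27.7%). The events that were higher started at a median PSI of 0.33 at 16 °C and stood at 0.54 at day 3. The events that were lower started at 0.68 and stood at 0.49. The median absolute change of the 382 events was 0.15, against 0.11 over all 638 events. A change of 0.20 or more was seen in 115 events and one of 0.30 or more in 25, of which 17 were higher and 8 lower. No event was without any change. The limit of 0.10 falls in a dense stretch of the values: 43 events changed by exactly 0.10 and 29 by 0.11, while 42 changed by 0.09 and 26 by 0.08 and were left out. Since the deposited values have 2 decimals, a difference is uncertain by up to 0.01 from rounding alone.

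**Figure D1:**
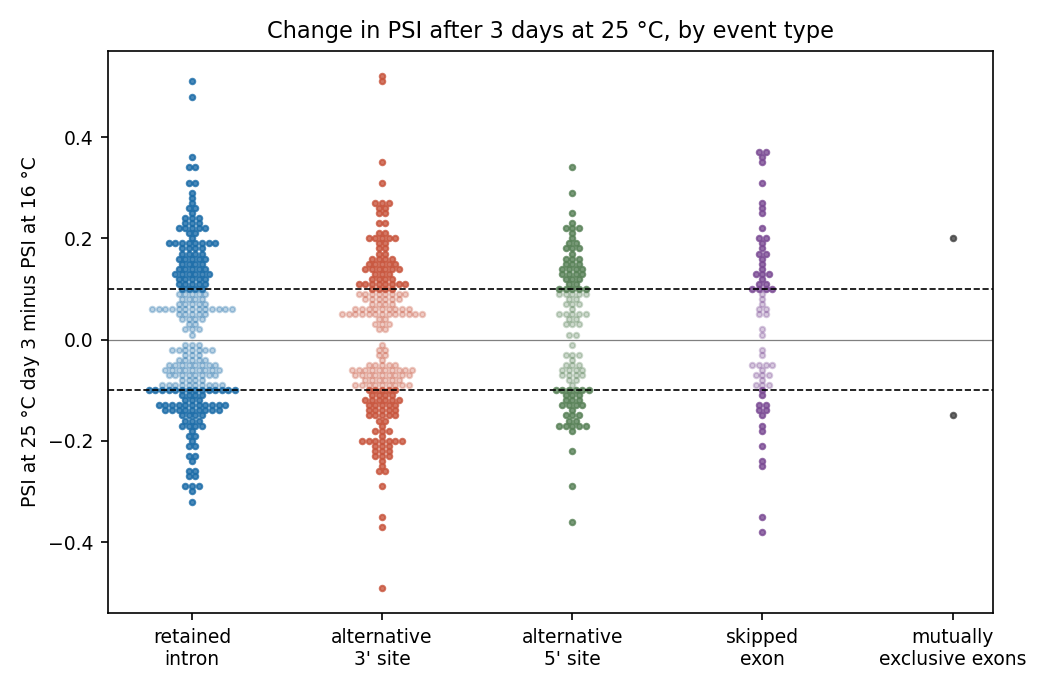
PSI at 25 °C day 3 minus PSI at 16 °C for all 638 events (vertical axis, no unit), 1 point per event, in columns by event type; dashed lines mark changes of 0.10 and dark points the 382 events at or past them. The points spread to both sides in each of the 4 larger types, from 0.52 down to -0.49 for alternative 3′ sites.

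Retained introns made up 147 of the 382 events, in 125 genes. They were the most frequent type in the list as a whole, with 246 events, of which 59.8% passed the limit, near the 59.9% of all events. For this type PSI is the share of transcripts that keep the intron. Retention was higher at 25 °C in 77 events and lower in 70. The largest increase was in the remorin gene AT2G41870, a member of a family of plasma membrane proteins, with a PSI of 0.21 at 16 °C and of 0.54, 0.72 and 0.58 after 1, 3 and 5 days at 25 °C. Day 3 was the highest of its 4 values. PLDGAMMA3 (AT4G11840), a phospholipase D, kept one intron in a share of 0.40 at 16 °C and of 0.79, 0.88 and 0.95 at the 3 times, while a second intron of the same gene was lower, at 0.84 and then 0.67, 0.68 and 0.58. RUS3 (AT1G13770), of a family named for root sensitivity to ultraviolet light, reached 0.62 at day 3 from 0.26, with 0.50 at day 1 and 0.40 at day 5. LNK2 (AT3G54500) and the nudix hydrolase gene NUDX13 (AT3G26690) completed the 5 largest increases, each with a change of 0.34.

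The lower values of retained introns were smaller in size, with a largest fall in PSI of 0.32 against a largest increase of 0.51. The non-coding RNA gene AT5G28262 had the lowest difference, with PSI of 0.84 at 16 °C and of 0.65, 0.52 and 0.70 at days 1, 3 and 5. The dihydroxyacetone kinase gene AT1G48430 went from 0.60 to 0.29, 0.30 and 0.34, and AT1G05860, a gene of unknown function, from 0.90 to 0.56, 0.61 and 0.66. The remaining 2 of the 5 lowest were entries of AT2G19250, annotated as a transcribed pseudogene, with 0.88 and 0.86 at 16 °C and 0.59 and 0.57 at day 3. At a change of 0.20 or more, 27 retained introns were higher and 15 lower.

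Event positions inside the gene are not part of the table. In 58 genes it held 1 retained intron and the TAIR10.1 reference annotation also held exactly 1 intron that another transcript keeps, so the event was set there; the match rests on there being a single candidate. Of these introns, 30 changed by 0.10 or more and 28 by less. All 30 had GT at the start and AG at the end, and their lengths ranged from 64 to 2081 bases with a median of 113, against 105 in the other 28 and 103 over 3927 such introns of the whole annotation. Among the 30, 23 lay between the annotated start and stop codon of a transcript. Read in the frame of the spliced transcript, 15 of these 23 held a stop codon, against 13 of 18 among introns below the limit. A length that is a multiple of 3 with no stop in frame, which would leave the downstream frame intact, was found in 5 of the 23, all of them higher at 25 °C, and in 4 of the 18.

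Of these introns 4 are printed to show what a transcript gains or loses when retention changes, the 2 with the largest increase and the 2 with the largest decrease among those of at most 300 bases in a coding range. AT1G76720, which encodes a protein of the eIF-2 translation initiation factor family, had a PSI of 0.53, 0.72, 0.84 and 0.76 at 16 °C and at days 1, 3 and 5. Its intron at chr1:28798204-28798272 (minus strand) has 69 bases and no stop in frame. AT5G65170, a gene for a VQ motif protein, had 0.57, 0.88, 0.86 and 0.91, and its intron at chr5:26041726-26041890 (plus strand) has 165 bases and likewise no stop in frame. HUA2 (AT5G23150) had 0.95, 0.77, 0.71 and 0.66, and its intron at chr5:7791641-7791816 (plus strand) has 176 bases with a stop codon in frame from base 6 of the intron. AT4G02540, with a cysteine and histidine-rich C1 domain, had 0.74, 0.52, 0.48 and 0.47, and its intron at chr4:1118898-1119006 (plus strand) has 109 bases, which shifts the frame. In the sequences, capitals mark the first and last dinucleotide and, in HUA2, the stop codon.
AT1G76720 intron: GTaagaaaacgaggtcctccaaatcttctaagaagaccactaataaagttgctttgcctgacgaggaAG
AT5G65170 intron: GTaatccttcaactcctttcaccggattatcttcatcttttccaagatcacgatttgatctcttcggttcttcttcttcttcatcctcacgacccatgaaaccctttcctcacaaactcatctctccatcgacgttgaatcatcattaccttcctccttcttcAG
HUA2 intron: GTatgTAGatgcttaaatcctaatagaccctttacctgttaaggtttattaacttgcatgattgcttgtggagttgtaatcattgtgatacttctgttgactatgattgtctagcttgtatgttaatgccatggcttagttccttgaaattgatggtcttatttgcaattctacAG
AT4G02540 intron: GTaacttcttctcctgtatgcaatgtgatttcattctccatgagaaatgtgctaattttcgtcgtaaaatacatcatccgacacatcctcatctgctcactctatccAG

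Alternative 3′ sites gave 121 events in 110 genes, out of 213 listed (56.8%, near the 59.9% of all events). Of the 121, 60 were higher and 61 lower at 25 °C. For this type, and for alternative 5′ sites, the table does not say which of the sites belongs to the reference isoform, so a higher PSI says only that the reference isoform gained share. The villin gene VLN3 (AT3G57410), whose product bundles actin filaments, had the largest fall of any event in the table. Its PSI was 0.59 at 16 °C, 0.15 at day 1, 0.10 at day 3 and 0.38 at day 5, so day 3 was the lowest value. AT1G01910, a gene for a nucleoside triphosphate hydrolase, followed with 0.50, 0.15, 0.13 and 0.09. AGO1 (AT1G48410), the Argonaute protein that carries microRNAs, had 0.74, 0.41, 0.39 and 0.40. AT3G46385 and AT5G06980, with no described function, completed the 5 lowest, with changes of -0.29 and -0.26.

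Of the 5 largest increases in PSI of 3′ site events, 3 belonged to the transcribed pseudogene AT2G19250. Of these, 2 entries went from 0.18 and 0.19 at 16 °C to 0.70 at day 3, after 0.62 at day 1. The third entry of the gene went from 0.12 to 0.20 at day 1, 0.43 at day 3 and 0.31 at day 5. AT2G46730, a second transcribed pseudogene, had 0.17, 0.57, 0.52 and 0.53 at 16 °C and at days 1, 3 and 5, and DEG15 (AT1G28320), a protease of peroxisomes, 1 of several genes with a change of 0.27, had 0.48, 0.69, 0.75 and 0.75. Transcribed pseudogenes supplied 13 listed events with a median absolute change of 0.29, and 12 of them passed the limit of 0.10, in 7 genes. The 599 events of protein-coding genes had a median of 0.11, with 351 past the limit. Of the 12 events, 5 were higher and 7 lower, and 5 of the 12 came from AT2G19250 alone.

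Single candidates in the annotation placed 74 alternative 3′ site events, of which 47 changed by 0.10 or more. The sites of a pair lay 9 bases apart at the median in both the 47 and the 27 that changed by less. They were exactly 3 bases apart in 15 of the 47 (31.9%) and in 10 of the 27 (37%), so tandem AG pairs were no more frequent among events with the larger change. Over all 3106 genes of the annotation with a single such pair, 13.4% were 3 bases apart and the median was 25. Of the 15 tandem pairs, 8 were higher and 7 lower at 25 °C. All 3′ sites of the 74 pairs ended in AG.

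**Figure D2:**
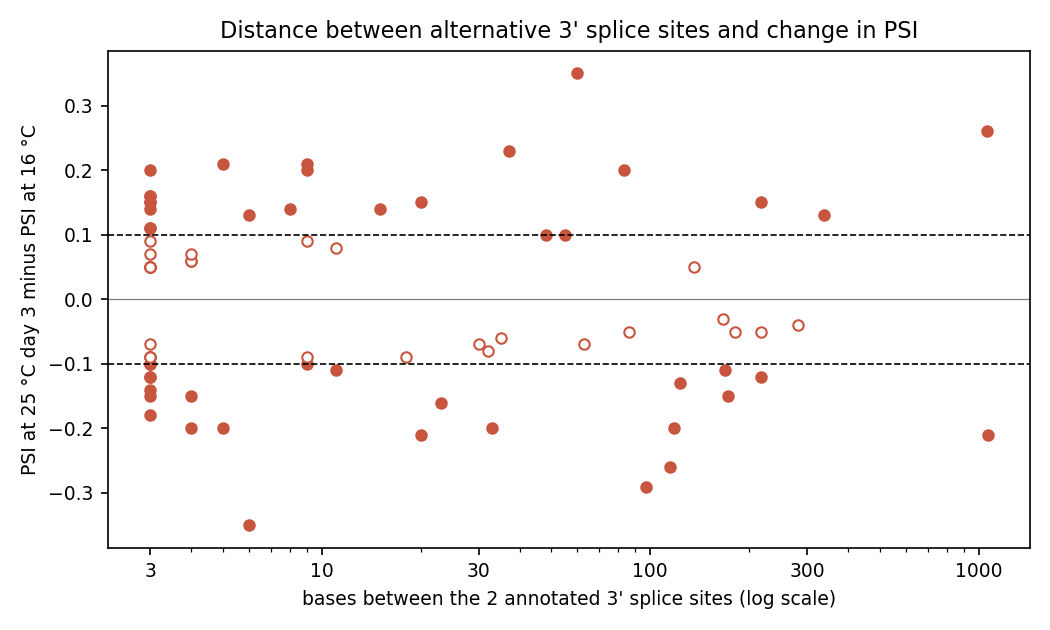
Distance in bases between the annotated 3′ sites of a pair (horizontal axis, log scale) and PSI at 25 °C day 3 minus PSI at 16 °C (vertical axis) for the 74 alternative 3′ site events placed by a single candidate; filled points changed by 0.10 or more. Changes of both signs occur at the shortest distance, 3 bases, as well as at the longest, 1058 and 1067 bases.

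Printed below are the windows around both 3′ sites of the 6 pairs at most 20 bases apart, in coding ranges, with the largest changes (3 in each direction), with the AG of either site in capitals. AGO1 (chr1:17890634-17890669, minus strand) has its sites 6 bases apart, which would add or drop whole codons. SHL1 (AT4G39100; chr4:18218724-18218773, minus strand), a PHD finger protein that binds modified histones, has them 20 bases apart and AT5G19210 (chr5:6461972-6462005, plus strand), a nucleoside triphosphate hydrolase gene, 4 bases apart, and both distances shift the frame. SHL1 had a PSI of 0.42, 0.24, 0.21 and 0.24 at 16 °C and at days 1, 3 and 5, and AT5G19210 had 0.90, 0.73, 0.70 and 0.71. Among the increases, the galactosyltransferase gene AT1G77810 (chr1:29262370-29262408, minus strand; 9 bases) had 0.13, 0.28, 0.33 and 0.37. AT5G50130 (chr5:20392188-20392220, plus strand; 3 bases), whose product has a Rossmann fold, had 0.78, 0.84, 0.98 and 0.97. CNGC12 (AT2G46450; chr2:19065923-19065957, plus strand; 5 bases), a cyclic nucleotide-gated channel, had 0.35, 0.49, 0.56 and 0.49.
AGO1: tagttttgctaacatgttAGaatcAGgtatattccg
SHL1: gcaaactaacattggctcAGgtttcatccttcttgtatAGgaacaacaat
AT5G19210: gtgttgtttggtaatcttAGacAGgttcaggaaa
AT1G77810: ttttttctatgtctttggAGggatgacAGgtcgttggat
AT5G50130: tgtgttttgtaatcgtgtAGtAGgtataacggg
CNGC12: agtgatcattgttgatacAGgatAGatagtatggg

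Alternative 5′ sites gave 70 events in 66 genes, out of 112 listed (62.5%, near the 59.9% of all events). Of the 70, 39 were higher and 31 lower. The haloacid dehalogenase-like hydrolase gene AT5G53850 had the largest increase, with a PSI of 0.13 at 16 °C and of 0.44, 0.47 and 0.38 at days 1, 3 and 5. The non-coding RNA gene AT5G28262 stood out by its time course, with 0.05, 0.16, 0.34 and 0.08. Its value at day 3 was well above both neighbours. The exonuclease gene AT5G26680, the uridine kinase-like gene UKL3 (AT1G55810) and the homeodomain gene HDG2 (AT1G05230) followed with changes of 0.25, 0.23 and 0.22. The lowest value belonged to AT3G45750, a nucleotidyltransferase gene, with 0.66, 0.33, 0.30 and 0.29. FLM (AT1G77080), a MADS-box repressor of flowering, had 0.89, 0.63, 0.60 and 0.59. AT2G42920, AT1G72740 and AT1G45248 had changes of -0.22, -0.18 and -0.17.

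Of the 26 alternative 5′ site events with a change of 0.10 or more and a single annotated candidate, the sites were 41.5 bases apart at the median. The pairs at most 20 bases apart with the largest increase and the largest decrease in a coding range are shown, with the first dinucleotide of the intron at either site in capitals. CKB3 (AT3G60250; chr3:22270973-22271005, minus strand), a regulatory subunit of the kinase CK2, had a PSI of 0.25, 0.40, 0.41 and 0.36, and its upstream site starts with GC instead of GT. AT1G72740 (chr1:27381127-27381174, minus strand), a homeodomain-like gene, had 0.49, 0.28, 0.31 and 0.25, and its sites are 18 bases apart.
CKB3: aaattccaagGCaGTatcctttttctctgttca
AT1G72740: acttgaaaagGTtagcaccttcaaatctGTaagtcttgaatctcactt

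Skipped exons gave 42 events in 36 genes, out of 65 listed (64.6%, near the 59.9% of all events). Here inclusion of the exon was higher at 25 °C in 28 and lower in 14. The share that was higher was thus 66.7%, against 53.7% over all types, 52.4% for retained introns, 49.6% for alternative 3′ sites and 55.7% for alternative 5′ sites. These shares are descriptions of the list, and their difference was not tested. AT1G62920, with a proteasome maturation factor domain, held the 2 largest increases, from 0.53 at 16 °C to 0.90 at day 3 in both, with nearly equal values in every group. AT1G10095, a prenyltransferase gene, had 0.11, 0.44, 0.47 and 0.40 at 16 °C and at days 1, 3 and 5. The Agenet domain gene AT5G52070 had 0.30, 0.63, 0.65 and 0.62, and AT1G19396, of unknown function, 0.13, 0.43, 0.44 and 0.38. Inclusion was lowest relative to 16 °C in ABCI19 (AT1G03905), of the ATP-binding cassette proteins, with 0.79, 0.58, 0.41 and 0.68. The tetratricopeptide repeat gene AT1G06710 had 0.59, 0.25, 0.24 and 0.33. RS40 and 2 entries of AT2G42920 completed the lowest 5. Both events of mutually exclusive exons passed the limit, NUDT22 (AT2G33980), a nudix hydrolase gene, with 0.41, 0.58, 0.61 and 0.48 and FLM with 0.93, 0.84, 0.78 and 0.75.

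**Figure D3:**
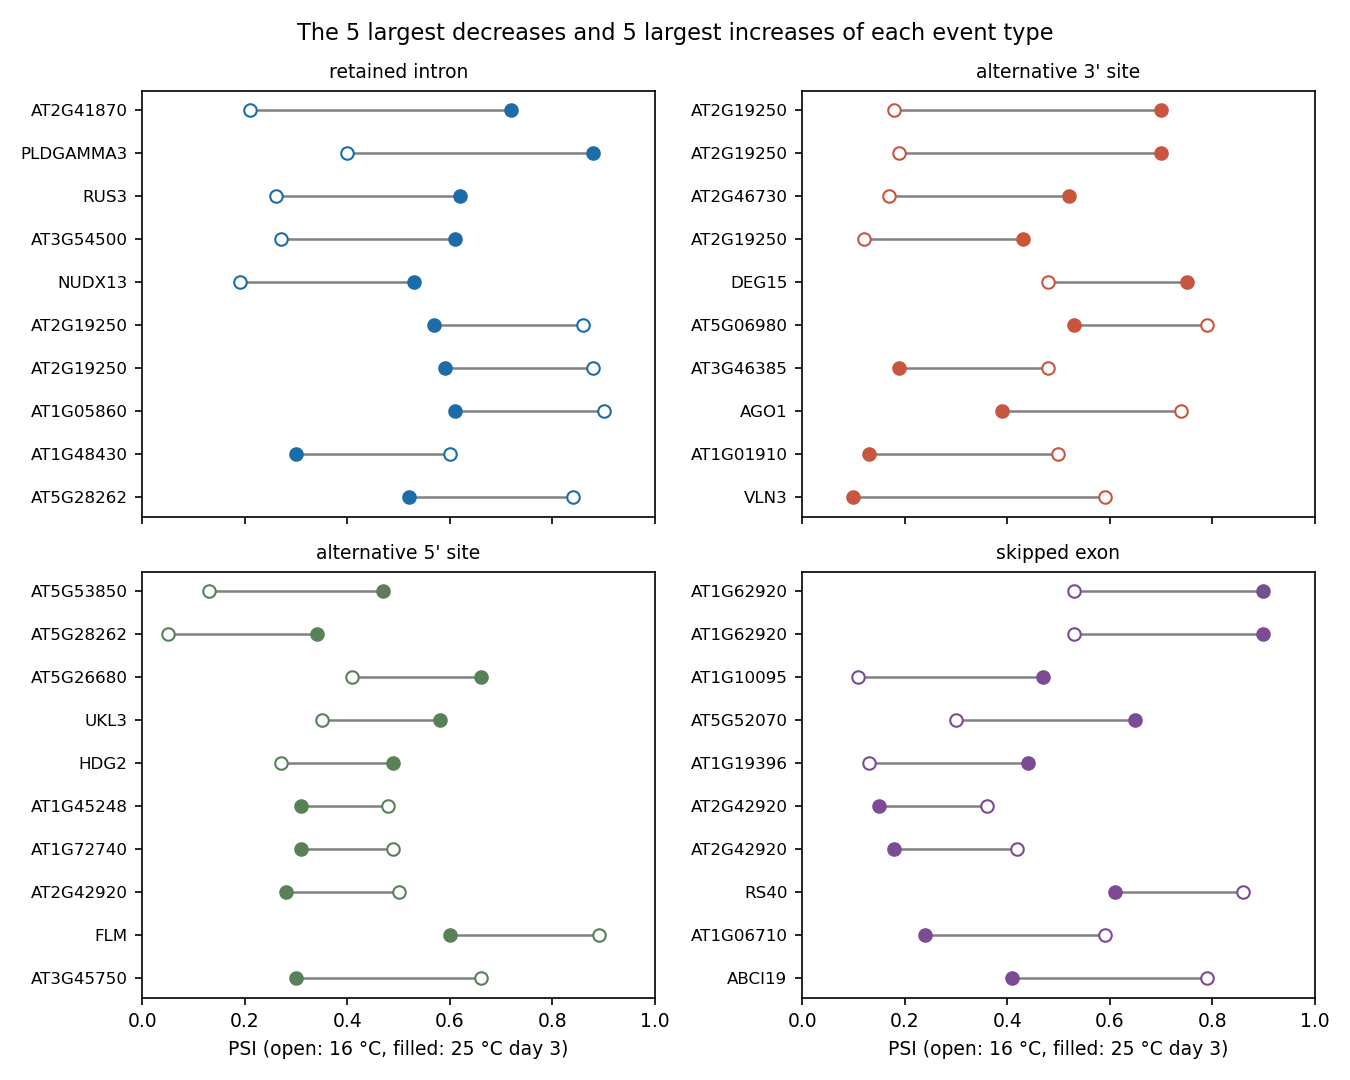
PSI (horizontal axis, 0 to 1) at 16 °C (open points) and at 25 °C day 3 (filled points) for the 5 largest decreases and the 5 largest increases of each of 4 event types; each line is 1 event, and gene names on the vertical axis repeat where a gene holds several events. VLN3 spans 0.59 to 0.10 and AT2G41870 spans 0.21 to 0.72.

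Most of the 382 events already differed from 16 °C at day 1. At day 1 the change was 0.10 or more in 320 events (83.8%) and between 0.05 and 0.09 in 47 (12.3%). It was below 0.05 in 15 events of 14 genes, which is 3.93% of the 382 and 2.35% of all 638. These 15 late events comprised 6 of the 213 alternative 3′ sites listed, 5 of the 246 retained introns, 3 of the 65 skipped exons and 1 of the 112 alternative 5′ sites. Of the 15, 12 were higher and 3 lower at day 3, against 169 higher and 151 lower among the 320 that had changed by 0.10 or more at day 1. Their changes were moderate, with a median size of 0.14 and a largest of 0.23. As both limits were set on measured values, these figures describe the choice and were not tested. Both changes are taken from the same 16 °C value, so an overlap of day 1 and day 3 is partly built in. No share over all 638 events is set beside the 83.8%, which is therefore no result about timing.

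AT5G50130 (chr5:20389915-20393306 in the RefSeq reference), whose product has an NAD(P)-binding Rossmann fold, was the only gene with 2 late events. One retained intron had a PSI of 0.52 at 16 °C and of 0.48, 0.73 and 0.81 at days 1, 3 and 5, and the other had 0.41, 0.42, 0.58 and 0.62. Both were near their 16 °C value at day 1 and highest at day 5. The tandem 3′ site of the same gene, printed above, had moved by 0.06 at day 1 and by 0.20 at day 3. Retention was also higher in AT2G35130 (chr2:14807449-14810229), a tetratricopeptide repeat gene, with 0.50, 0.51, 0.61 and 0.63. SECA1 (AT4G01800; chr4:770722-776439), the motor of protein import into thylakoids, had 0.24, 0.28, 0.39 and 0.29, so that its change at day 5 was back at 0.05. Retention was lower in the long non-coding RNA gene AT5G18245 (chr5:6028020-6033342), with 0.93, 0.92, 0.82 and 0.76. A skipped exon listed for this gene had 0.47, 0.83, 0.65 and 0.68, and one listed for the neighbouring gene AT5G18250, in the same assembled locus and on the same strand, had 0.46, 0.83, 0.65 and 0.69, so both entries may count the same reads.

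The late alternative 3′ sites included several genes for transport across membranes. ABCC11 (AT1G30420; chr1:10748261-10756695), a transporter of the multidrug resistance family, had the largest late change. Its PSI was 0.80 at 16 °C, 0.76 at day 1, 0.57 at day 3 and 0.52 at day 5. CLC-D (AT5G26240; chr5:9189425-9194758), a chloride channel family member, had 0.16, 0.13, 0.30 and 0.23. KEA1 (AT1G01790; chr1:284350-291203), a potassium efflux antiporter of the chloroplast envelope, had 0.05, 0.09, 0.17 and 0.14. The other late 3′ site events were in AT2G25530 (chr2:10863059-10866910), for an AFG1-like ATPase, with 0.78, 0.81, 0.92 and 0.88, in VAD1 (AT1G02120; chr1:395689-400001), a regulator of cell death, with 0.96, 0.92, 0.86 and 0.88, and in VIL2. A second 3′ site event of VAD1 was not late, with 0.95, 0.80, 0.72 and 0.71.

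Late events were also found in the flowering genes FCA and VIL2. FCA (AT4G16280; chr4:9206597-9214981), an RNA-binding protein that lowers expression of the floral repressor FLC, had a late alternative 5′ site event with PSI of 0.43, 0.46, 0.58 and 0.47 at 16 °C and at days 1, 3 and 5. Day 3 was its highest value and day 5 was within 0.04 of 16 °C. The single annotated candidate for this event has its 5′ sites 1 base apart, outside the annotated coding range. One of these sites starts with GG instead of GT. A retained intron of FCA followed another course, with 0.28, 0.18, 0.15 and 0.13. VIL2 (AT4G30200; chr4:14786532-14790501), a VIN3-like protein known from vernalization, had 0.45, 0.49, 0.56 and 0.56 in the late entry and 0.45, 0.50, 0.56 and 0.57 in a second entry. The second entry changed by 0.05 at day 1 and so fell just outside the limit, together with an event of YSL3 (0.14, 0.09, 0.03 and 0.11) and one of AT1G73480 (0.74, 0.79, 0.87 and 0.90).

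The 3 late skipped exons all had higher inclusion at day 3. AT1G28395 (chr1:9969246-9971681), of unknown function, had 0.27, 0.30, 0.42 and 0.37. Inclusion was rare in both others: AT1G79950 (chr1:30073524-30080778), a RAD3-like DNA helicase gene, had 0.04, 0.08, 0.14 and 0.09, and ACR1 (AT5G65890; chr5:26354853-26357905), with ACT domains, had 0.04, 0.08, 0.14 and 0.05. Both lie at the day 3 limit of 0.10 and 0.01 below the day 1 limit. Of the 15 late events, 8 had changed by 0.04 at day 1, so that a day 1 limit of 0.04 leaves 7. At day 5 the change from 16 °C was 0.10 or more in 8 of the 15, between 0.05 and 0.09 in 5 and below 0.05 in 2. The day 5 value lay further from 16 °C than the day 3 value in 5, equally far in 1 and nearer in 9. Because the events were chosen for a large change at day 3, a nearer day 5 value is favoured by the choice. These day 5 counts describe the 15 events and were not tested. The median number of annotated introns was 15.5 in the 14 late genes and 10 over the 506 genes with an annotation.

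**Figure D4:**
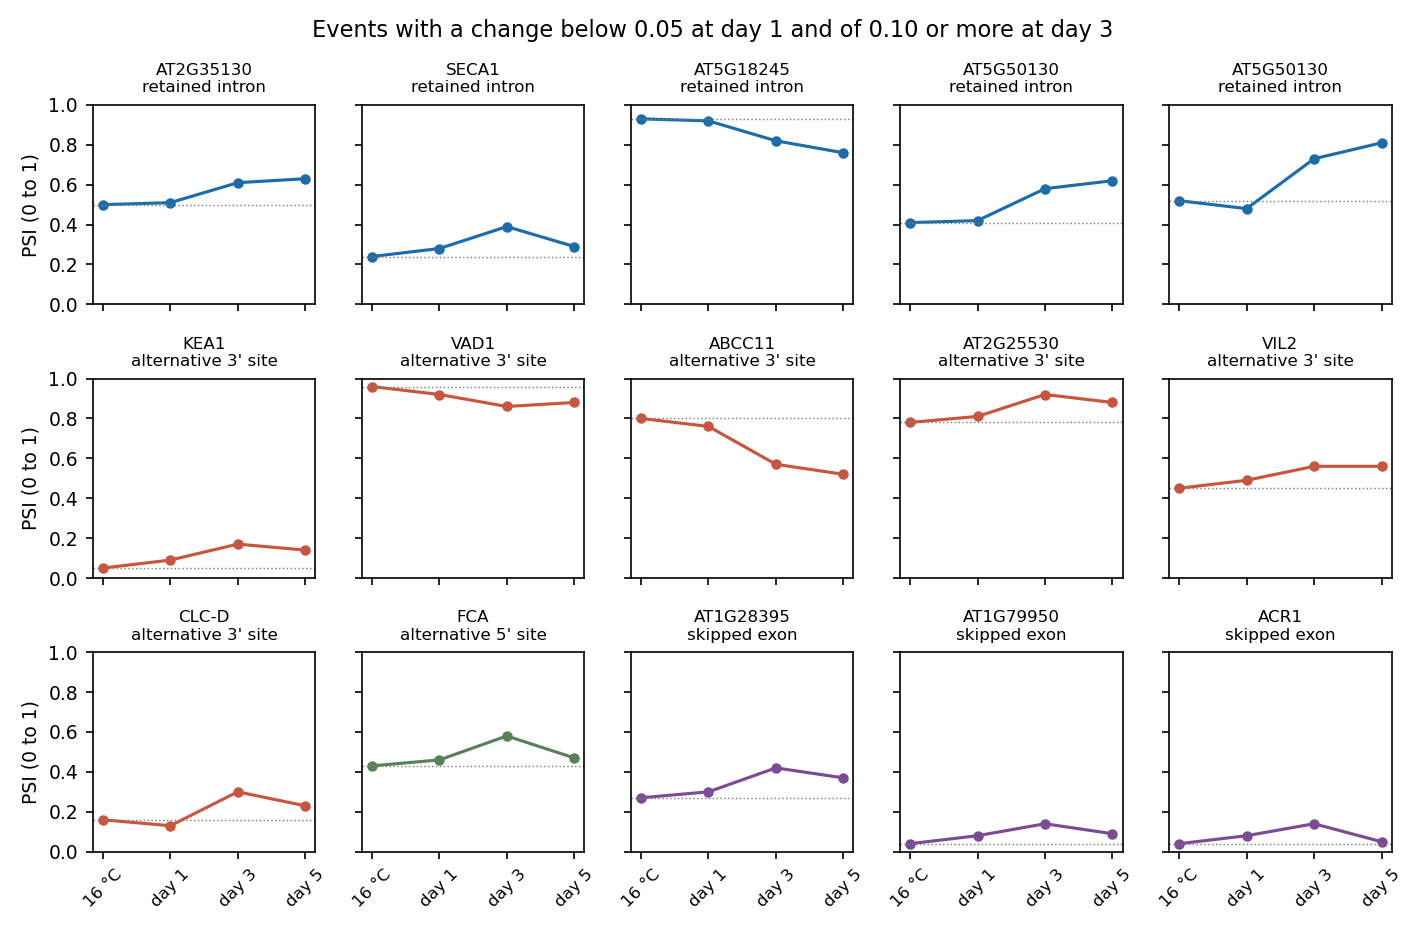
PSI (vertical axis, 0 to 1) of the 15 late events at 16 °C and after 1, 3 and 5 days at 25 °C (horizontal axis), 1 panel per event, coloured by event type; the dotted line is the 16 °C value and each point is the 1 deposited value of a group. Day 1 lies within 0.04 of the dotted line in all panels, and ABCC11 has the largest distance at day 3, 0.23.

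The flowering list, 14 genes chosen by identifier, had 10 genes and 14 events in the table, and 12 events passed the limit, 6 higher and 6 lower, against the 59.9% of all events. The median absolute change over the 14 events was 0.15. This list and the clock and splicing factor lists below were chosen with earlier results of these data known. They include genes the paper names from these data, so their shares describe the lists only. FLM held 3 of the 12 events: beside the 5′ site and the exclusive exons, its retained intron had a PSI of 0.15, 0.31, 0.32 and 0.30. MAF2 (AT5G65050), a related MADS-box repressor, had a retained intron with 0.33, 0.52, 0.54 and 0.57, and MAF3 (AT5G65060) a 3′ site event with 0.97, 0.84, 0.77 and 0.81. These genes belong to a family of similar sequences, and whether reads were shared between them was not tested. MOS1 (AT4G24680), named as a modifier of an immune receptor mutant, had a skipped exon with 0.10, 0.17, 0.23 and 0.22. HUA2, which promotes expression of floral repressors, and SHL1 were described above. The events of EDM2 and SPL2 changed by 0.04 and 0.07.

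The clock list of 12 genes had 7 genes and 11 events, of which 5 passed the limit (45.5%, against 59.9% of all events), 3 higher and 2 lower. The median absolute change was 0.09, against 0.11 over all events. LNK2, a coactivator that works with clock MYB factors, kept an intron in a share of 0.27 at 16 °C and of 0.59, 0.61 and 0.58 at 25 °C, while its 3 alternative 3′ site events changed by 0.05 to 0.08 in size. PRR3 (AT5G60100), a pseudo-response regulator, had a retained intron with 0.43, 0.23, 0.29 and 0.27. In PRR7 (AT5G02810) a retained intron had 0.27, 0.37, 0.38 and 0.35 and a skipped exon 0.96, 0.86, 0.86 and 0.86. CKB3 was described above.

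Among 22 genes for SR proteins, which bind exons and help to choose splice sites, and for U2AF, which reads the 3′ end of introns, 12 genes with 17 events were listed. Of these, 12 events passed the limit (70.6%, against 59.9% of all events), 9 higher and 3 lower. Among all events past the limit, 53.7% were higher. The median absolute change was 0.14 over the 17, against 0.11 over all events. SCL33 (AT1G55310) had 2 skipped exons with higher inclusion, one with 0.52 at 16 °C and 0.78 at all 3 times at 25 °C, the other with 0.66, 0.90, 0.86 and 0.86. RS40 (AT4G25500) moved in both directions, with a skipped exon at 0.86, 0.65, 0.61 and 0.67 and a 3′ site event at 0.09, 0.22, 0.26 and 0.21. Its exon was among the 5 lowest of that type. SR45a (AT1G07350) had a skipped exon with 0.12, 0.30, 0.29 and 0.34, and SR30 (AT1G09140) a 3′ site event with 0.08, 0.18, 0.21 and 0.26. RS2Z33 (AT2G37340) and RS31 (AT3G61860) had 3′ site events with changes of 0.15 and -0.14, and SCL30A (AT3G13570) a retained intron with a change of 0.13. The large U2AF subunit genes ATU2AF65A (AT4G36690) and AT1G60900 both kept introns more often at day 3. ATU2AF65A had 0.34, 0.53, 0.45 and 0.41 and AT1G60900 had 0.51, 0.68, 0.70 and 0.71. A 3′ site event of ATU2AF65A had 0.64, 0.40, 0.49 and 0.52. Single events of RS2Z32, SR45 and SR34 and a pair of SCL30A changed by less than 0.10.

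The other lists were drawn from the annotation text by keywords set for each list. Some keywords are names of single genes or proteins, so a list need not hold all genes of its kind. Counts of the lists are to be read against the 59.9% of all listed events past the limit. Shares near it are no result about a list. RNA-binding proteins had 22 of 33 events past the limit (66.7%, against 59.9%), 12 higher and 10 lower. The La protein gene La2 (AT1G79880) had 2 retained introns at 0.35 and 0.33 at 16 °C and 0.60 and 0.57 at day 3, and the Tudor-like gene AT4G32440 had 1 at 0.78, 0.55, 0.57 and 0.55. The RRM gene AT1G20880 had a 3′ site event with 0.30, 0.22, 0.14 and 0.22. Helicases had the lowest share, with 4 of 14 events past the limit (28.6%) and a median absolute change of 0.065. Their lower events were AT3G62310 (0.46, 0.27, 0.26 and 0.30), AT5G14610 (0.33, 0.13, 0.14 and 0.19) and emb1138, all of them 3′ sites, and the single higher one was the late exon of AT1G79950.

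Kinases had 29 of 47 events past the limit, 16 higher and 13 lower, a share of 61.7% that is near the 59.9% of all events. AT4G31240, with a kinase C-like zinc finger, had a retained intron with a PSI of 0.24, 0.54, 0.51 and 0.57, and AT1G65950 a skipped exon with 0.40, 0.67, 0.67 and 0.61. The S-locus lectin kinase gene AT1G61490 had a retained intron with 0.82, 0.74, 0.55 and 0.73, lowest at day 3. Disease resistance genes of the TIR-NBS-LRR class, which encode intracellular immune receptors, had 8 events, all retained introns. Of the 8, 5 were past the limit (62.5%, near the 59.9%). Over all types, 53.7% of the events past the limit were higher, and these 5 were all higher. Of these, 4 lay in RPP4 (AT4G16860), a receptor for downy mildew, with 0.18, 0.26, 0.30 and 0.34 at 16 °C and 0.31, 0.45, 0.47 and 0.52 at day 3. The other was in AT5G40910, with 0.40, 0.70, 0.63 and 0.66. A further retained intron of RPP4 was lower by less than the limit, with 0.98 at 16 °C and 0.91 at day 3.

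Transporters and channels had 17 of 29 events past the limit, 10 higher and 7 lower, a share of 58.6% beside the 59.9% of all events. The late events ABCC11, KEA1 and CLC-D were 3 of the 29, where 2.35% of all events were late. The keywords were set with earlier results known and match the annotation of these 3 genes. This comparison is therefore no result about transporters. ABCB26 (AT1G70610) had a 3′ site event with 0.34, 0.57, 0.61 and 0.61 and the cyclic nucleotide-gated channel gene CNGC6 (AT2G23980) one with 0.27, 0.47, 0.48 and 0.36. AGO1 falls in this list only because its annotation text also names a transporter. The chloroplast list had 5 of 8 events past the limit (62.5%, near the 59.9%), all higher. Of all events past the limit, 53.7% were higher. The list holds 7 genes found by a few keywords and leaves out other chloroplast genes such as KEA1. Its direction therefore describes these genes only. PGR5-LIKE A (AT4G22890), of cyclic electron flow around photosystem I, had a 3′ site event with 0.43, 0.58, 0.62 and 0.62, and CHLM, SIG4 and CYP38 had changes of 0.12, 0.11 and 0.10. SECA1 is the late member of this list.

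Chromatin domain genes had 14 of 18 events past the limit (77.8%, against 59.9% of all events), 7 higher and 7 lower. The keywords of this list include the protein names VIN3 and TOPLESS. HUA2, SHL1 and the 2 nearly equal entries of VIL2 are also in the flowering list. The share therefore describes these entries only. The corepressor gene TPR1 (AT1G80490) had a 3′ site event with 0.34, 0.60, 0.50 and 0.54, and the PHD finger gene AT4G23860 one with 0.70, 0.48, 0.48 and 0.45. Pentatricopeptide and tetratricopeptide repeat genes, many of which act on organelle RNA, had 12 of 16 (75%, against 59.9%), with 4 higher and 8 lower. The 12 events lay in 9 genes. Of the 8 lower events, 3 came from AT2G42920 and 2 from AT1G06710, and events of a gene are not independent. AT1G17680 had a retained intron with 0.17, 0.37, 0.37 and 0.36 and OTP86 (AT3G63370) a 5′ site event with 0.26, 0.54, 0.44 and 0.39. Ubiquitin genes had 9 of 14 (64.3%, near the 59.9%), with 3 higher and 6 lower. POB1 (AT3G61600), a BTB protein, had a retained intron with 0.55, 0.79, 0.77 and 0.73 and AT3G47910 a 3′ site event with 0.17, 0.38, 0.32 and 0.32, while UEV1D-4 (AT3G52560) and the F-box gene AT3G59210 had changes of -0.15 and -0.13.

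Genes of DNA repair and replication had 8 of 12 events past the limit (66.7%, against 59.9% of all events), 4 in each direction, with a median absolute change of 0.17 against 0.11 over all events. Several keywords of this list name single listed genes, such as REV3 and MMZ3. Its share and median therefore describe these entries and not repair genes at large. REV3 (AT1G67500), the catalytic subunit of a translesion DNA polymerase, had a 3′ site event with a PSI of 0.28, 0.03, 0.10 and 0.07. XRCC2 (AT5G64520), a DNA repair gene, had one with 0.21, 0.40, 0.41 and 0.30, and MMZ3 (AT2G36060) a 5′ site event with 0.44, 0.27, 0.27 and 0.31. Genes with no described function were the largest group, with 56 of 88 events past the limit (63.6%, near the 59.9% of all events), 24 higher and 32 lower, and a median absolute change of 0.12 against 0.11.

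**Figure D5:**
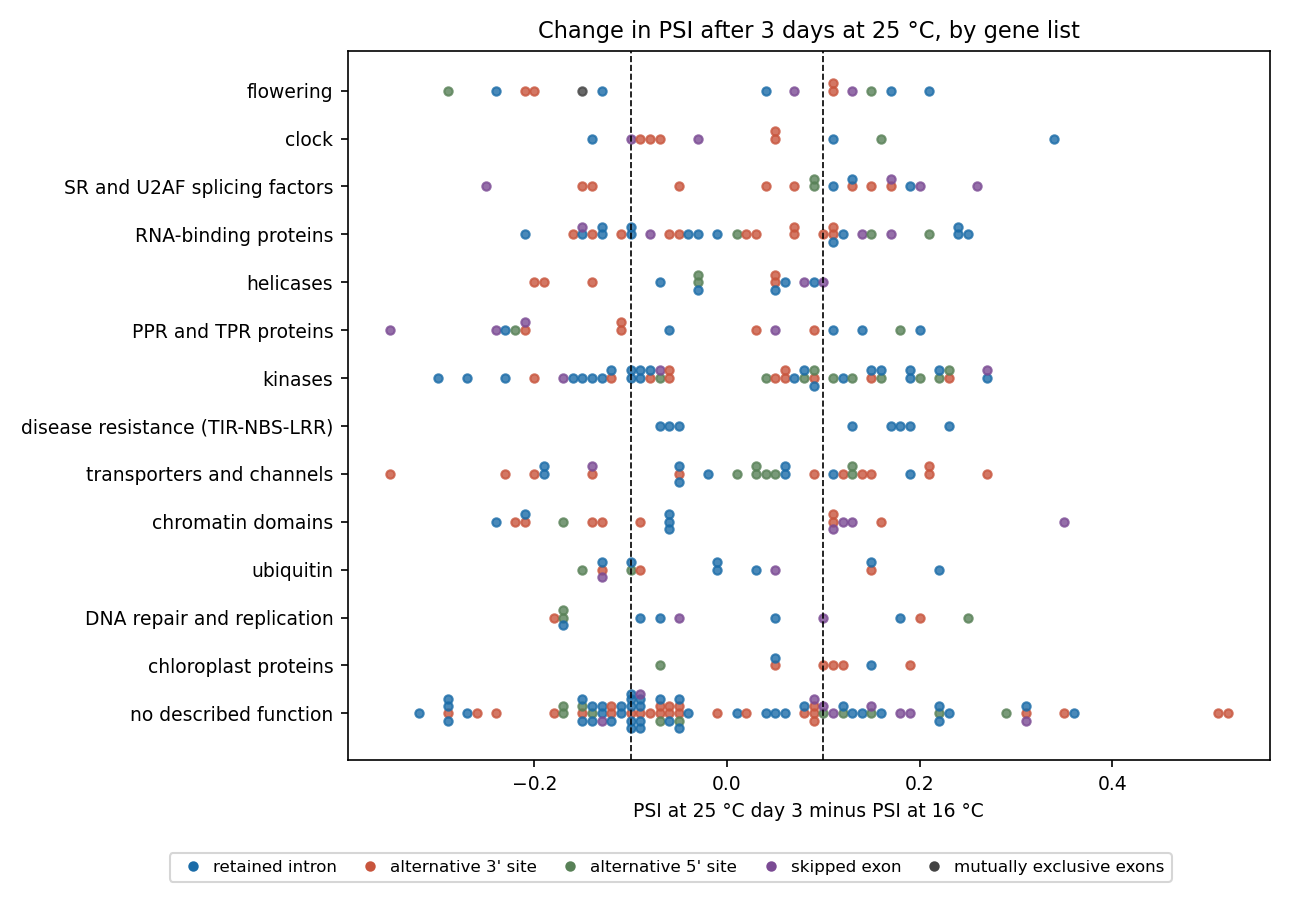
PSI at 25 °C day 3 minus PSI at 16 °C (horizontal axis) for all events of 14 gene lists (vertical axis), 1 point per event, coloured by event type; dashed lines mark changes of 0.10, and a gene may be in several lists. The 5 events past the limit in the disease resistance list and the 5 in the chloroplast keyword list all lie on the right. Each of the other lists has events past the limit on both sides.

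Several events of a gene were often listed together. Of the 311 genes, 260 had 1 event past the limit, 51 had 2 or more and 13 had 3 or more. In 18 genes the events went in both directions. AT1G62130, for an AAA-type ATPase, had 3 retained introns with a PSI of 0.27, 0.48 and 0.50 at 16 °C and 0.49, 0.74 and 0.76 at day 3, and 2 lower 3′ site events, 0.91 to 0.71 and 0.93 to 0.76. AT1G62920 had 3 retained introns with changes of 0.14, 0.16 and 0.19 beside its 2 skipped exons. AT2G42920, a pentatricopeptide repeat gene, was lower in 2 skipped exons and a 5′ site event, with changes of -0.24, -0.21 and -0.22. The protein kinase gene AT5G63370 was lower in 3 retained introns, from 0.85, 0.83 and 0.76 to 0.70, 0.70 and 0.64. NDL1 (AT5G56750), of the N-MYC downregulated-like family, was higher in 3 entries of 3′ sites with changes of 0.18, 0.18 and 0.19, and the SET domain gene AT3G55080 in 3 skipped exons, from 0.05 each to 0.16, 0.17 and 0.18. AT3G61010 had 2 higher retained introns and a lower 3′ site event, with 0.62 at 16 °C and 0.37 at day 3.

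Of the 16 genes with 2 or more retained introns past the limit, 14 had them all in the same direction. The exceptions were PLDGAMMA3, described above, and CRK29 (AT4G21410), a cysteine-rich receptor-like kinase gene, with one intron at 0.12, 0.31, 0.28 and 0.25 and another at 0.29, 0.14, 0.15 and 0.17. AT4G03230, an S-locus lectin kinase gene, had 3 introns past the limit that were higher, from 0.28, 0.44 and 0.55 to 0.47, 0.63 and 0.77, and 2 below it that were lower, from 0.61 and 0.65 to 0.52 and 0.57. Events of a gene share its reads and are not independent of each other. In 7 assembled loci the table lists events of 2 or more genes, and 12 events past the limit lie there. The libraries were stranded, but the sources used here do not say if PSI was estimated by strand.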

How the data were processed

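Polyadenylated RNA of 12 samples, 3 in each of 4 groups taken from the sample titles, was sequenced from TruSeq Stranded mRNA libraries. Reads were mapped by the authors with TopHat to TAIR10 (methods and the submitters' processing notes), and they assembled transcripts with Cufflinks, listed events with own scripts and estimated PSI with MISO; the sources used here give no versions. The deposited PSI is a fraction from 0 to 1 with 2 decimals, 1 value per group from the authors, and although the methods state that PSI was estimated per sample and on merged replicates, they do not say which of these the deposited columns hold. The authors kept events with at least 20 isoform-specific reads in 2 replicates, with PSI differing less among replicates than between conditions, and with a Bayes factor of at least 5 on at least 1 day. The column naming the authors' own calls was not used, and events that were not called are not analysed here. Depth per event is unknown, and so no interval is given.

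Differences (25 °C day 3 minus 16 °C) were computed per event in Python 3.11.15, checked on simulated data, with limits of 0.10 at day 3 and 0.05 at day 1. No test was run, since each group has 1 value. The members, limits and 14 gene lists (3 by identifier, 11 by annotation text) were chosen with earlier results of these data known. The text names all late events, the 5 largest increases and decreases per event type (SE, RI, A3, A5), both MXE events (ties ordered by event name), all changed events of the identifier lists, 2 per direction of the text lists, and genes with 3 or more changed events; events beyond these were chosen after their values were seen. Late means a change below 0.05 at day 1. Gene coordinates are those of the RefSeq reference. Intron and site coordinates and sequences are from RefSeq TAIR10.1, in which 476 of 483 genes have the same coding start and end as in the deposited table. In the reference 506 of 511 genes were found. Alternatives were other limits, 1 event per gene, identical events counted once, 16 °C PSI from 0.05 to 0.95, and annotated events only.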

Additional observations from a re-analysis of the deposited data

How the results depend on the processing

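Of 57 alternative values, 51 stayed within the limits set for them and 6 moved. With a minimum change of 0.20 there were 115 events in 95 genes, 59.1% of them higher at 25 °C, with 75% for alternative 5′ sites (12 events) and 64.3% for retained introns (42 events). With a day 1 limit of 0.04 the late events numbered 7 in place of 15. Under the other alternatives the late events numbered from 11 (1 event per gene) to 18, and no result changed direction except that the share of higher alternative 3′ site events lay close to 50% throughout, from 45.5% to 50.8%. Minimum changes of 0.09 and 0.11 gave 424 and 339 events. Leaving out a replicate was not run and no paired analysis was possible because the table holds 1 value per group. Depth per event is unknown, so how firmly a single PSI is known cannot be stated.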

Other observations

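Of the 638 listed events, 13, in 13 genes, had the opposite course to the late events. Their change was 0.10 or more at day 1 and below 0.05 at day 3. Late events numbered 15 of the same 638 (2.35%), so both courses were about equally rare. The largest change at day 1, 0.18, was in EDM2 (AT5G55390), a regulator of chromatin and immune receptor transcripts, whose retained intron had a PSI of 0.24 at 16 °C and of 0.42, 0.28 and 0.35 at days 1, 3 and 5. The sugar transporter gene TMT2 (AT4G35300) had an alternative 5′ site event with 0.49, 0.65, 0.50 and 0.57. GTG2 (AT4G27630), a GPCR-type G protein gene, had an alternative 3′ site event with 0.82, 0.96, 0.85 and 0.91, and FRS2 (AT2G32250) one with 0.79, 0.66, 0.77 and 0.57. The day 5 value lay further from 16 °C than the day 3 value in all of these events but those of SUO (AT3G48050) and AT1G50910. In these 2 genes both values were equally far. A day 3 value close to 16 °C was a condition of the choice, which favours such a course. ARC5 (AT3G19720), a protein of chloroplast division, had a retained intron with 0.87, 0.77, 0.85 and 0.83. These events were chosen by their values, and no test was run on them.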
